A study of Mus musculus with 32 samples.

Results

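The genes described here are the 48 mouse genes that encode core proteins of the spliceosome, taken by gene symbol from both deposited gene tables, which list 38201 genes each. They fall into 8 groups by role, namely the 7 Sm ring proteins, 7 proteins of the U1 snRNP or associated with it, 12 of the U2 snRNP or associated with it, 4 that recognise the branch point and the 3′ splice site, 3 of the U4/U6 snRNP, 6 of the U5 snRNP and tri-snRNP, the 2 Prp38 proteins and 7 of the Prp19 complex and the catalytic stage. Their transcripts were followed in P19 cells, a mouse embryonal carcinoma line with stem cell properties, after 1 SR protein at a time had been depleted with esiRNA, a pool of short interfering RNAs made from 1 stretch of the target, for 36 h with Lipofectamine 2000. The 7 targets were SRSF1 through SRSF7, 1 for each knockdown, and the control received an esiRNA against GFP, a gene that mouse cells lack. Each of these 8 groups gave poly(A)+ RNA from whole cells and from the cytoplasm, in replicates A and B, which makes 32 libraries. All groups are the same line in the same medium, the esiRNA pool is the only labelled difference, and the labels do not say what the letters A and B stand for, so the tests measure the spread between 2 libraries of a group. All 7 comparisons of a fraction use the same 2 GFP libraries.

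The spliceosome assembles anew on each intron. The U1 snRNP pairs with the 5′ splice site, SF1 and the U2AF heterodimer mark the branch point and the 3′ end of the intron, the U2 snRNP replaces SF1 at the branch point, and the U4/U6.U5 tri-snRNP then joins and is remodelled, with the Prp19 complex, into the catalytic machine. The Sm proteins form a ring around most of the spliceosomal snRNAs. SR proteins, the factors depleted here, bind exons and help recruit U1 and U2AF, and the transcripts of many splicing factors are themselves alternatively spliced.

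The splice sites below border the exons and introns of member genes on which the exon-level results turn. They were read from the mouse genome build mm9, 5′ to 3′ on the strand of the gene, with the 20 intron bases in lower case and the 10 exon bases in capitals. The first 4 border the 2 alternative exons of U2af1, the small subunit of U2AF, on chromosome 17 (31789504 to 31789533, 31789427 to 31789456, 31788648 to 31788677 and 31788571 to 31788600, minus strand), and the next 2 border the alternative exon of Snrpb on chromosome 2 (130002479 to 130002508 and 130002345 to 130002374, minus strand).
U2af1 upstream exon, acceptor: tttattttttttccccgcagACCATCTTGA
U2af1 upstream exon, donor: GGCTCACACTgtaagtcccacagttggaga
U2af1 downstream exon, acceptor: tgttgcgttttgtatttcagACCATTGCCC
U2af1 downstream exon, donor: GGTTTGCGCTgtaagttcatacaagttcct
Snrpb alternative exon, acceptor: ctctcatgttctccccacagGTGTGTGAGG
Snrpb alternative exon, donor: CCTCTTCAGGgtaagtgctctgctccccat
The last 3 border the introns to which bins that gained reads after a knockdown were assigned. They lie in Prpf31 (chromosome 7, 3582498 to 3582527), Snrpc (chromosome 17, 27984993 to 27985022) and Sf3a1 (chromosome 11, 4078054 to 4078083), all on the plus strand.
Prpf31 exon 3, donor: GTGTCGGAAGgtgcctcccaccctcacttt
Snrpc exon 5, donor: GTGGGACCAGgtaagtcggaacgtgtcaca
Sf3a1 exon 13, acceptor: actgttccttgtccttgcagCCTTTGTGCC
The intron side of each donor shown opens with gtaagt, close to the usual mammalian 5′ splice site, except that of Prpf31 exon 3, which opens with gtgcct.

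The gene tables hold scaled reads, that is, estimated reads per gene divided by 1 factor per library, and with these factors undone the totals were 26935704 to 40873658 reads per whole-cell library and 27713033 to 48584985 per cytoplasmic library. Each of the 7 targeted Srsf transcripts had a lower mean in its knockdown than in GFP in both fractions, with 48.8 to 68.7% of the GFP level left in whole cells and 37.8 to 77% in the cytoplasm. All 10 pluripotency markers were detected. The letters differed: summed epithelial and mesenchymal transcripts were at 228.3 to 388.6 CPM (counts scaled to 1 fixed total per library) in the A whole-cell libraries and 665.8 to 923.9 in the B ones, and summed pancreas transcripts were at 16.5 to 20.4 CPM in 7 of the A cytoplasmic libraries and 1.07 to 1.66 in the B ones. In whole cells the pancreas sum was low in both letters, at 0.723 to 1.43 CPM in A and 0.696 to 1.08 in B. The SRSF2 A cytoplasmic library stood apart from its letter, with 1.80 CPM of pancreas and 0.722 CPM of gland transcripts, the latter at 24.1 to 34.5 CPM in the other 7 A cytoplasmic libraries, and it enters the fits as an A library. In the A whole-cell libraries the gland sum was 0.104 to 1.04 CPM. Summed nuclear RNAs in the cytoplasm spanned 104.6 to 213.3 CPM in A, with SRSF3 A the highest, and 84.96 to 135.1 in B. Their part in the results was not tested.

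All 48 transcripts were abundant enough to be tested in both fractions, and few of them changed. Snrpa1 fell after SRSF1 knockdown and Prpf6 rose after SRSF3 knockdown, both in whole cells, and none of the 48 passed the test (limma across all genes, adjusted p below 0.05) in the cytoplasm. In whole cells, 1 of 48 was called after SRSF1 knockdown, where 0.804% of all 18526 genes tested were called, and 1 of 48 after SRSF3 knockdown, where 11.5% of all genes were. None of the 48 was called after knockdown of SRSF2 (0.0216% of all genes), of SRSF7 (0.0162%) or of SRSF4, SRSF5 or SRSF6 (0% each). In the cytoplasm the share of all 17530 genes called was 0.108% for SRSF1, 0.485% for SRSF3 and 0% for each other knockdown. At an unadjusted p below 0.05, limma gave 6, 4 and 4 of the 48 in whole cells for SRSF1 through SRSF3 and 0 for the other knockdowns, and 3, 10, 2, 2 and 1 in the cytoplasm for SRSF1 to SRSF5 and 0 for SRSF6 and SRSF7. Among all 18526 genes in whole cells it gave 1106 higher and 1440 lower for SRSF1 and 930 and 1068 for SRSF2. For SRSF3 it gave 2688 and 2610 there. Among all 17530 genes in the cytoplasm the higher and lower counts were 831 and 878 for SRSF1 and 669 and 620 for SRSF2. They were 1360 and 1011 for SRSF3, 495 and 349 for SRSF4 and 110 and 109 for SRSF5. Where no member passed, SRSF7 had the most genes, 579 and 697 in whole cells and 313 and 385 in the cytoplasm.

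The differences between the A and the B library were correlated between every 2 groups, so the same fit was also made with the letter as a block. More members passed then. After SRSF3 knockdown 15 of 48 were higher and 0 lower in whole cells (31.2% of members), where the blocked fit called 33.2% of all genes, 16.2% higher and 17.1% lower. After SRSF1 knockdown 4 were higher and 2 lower (11% of all genes), and after SRSF2 knockdown 3 were higher and 0 lower (6.05% of all genes). In the cytoplasm the block gave 1 lower member for SRSF1 (6.2% of all genes), 4 higher for SRSF2 (1.83%) and 1 higher for SRSF3 (14%). For SRSF4 through SRSF7 no member passed in either fraction with either fit. Values named below as passing only with the letter in the model come from this second fit.

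Below the threshold, the members' medians were above 0 in several knockdowns and below 0 in others. Their median log2 fold change in whole cells was 0.09 for SRSF1, 0.16 for SRSF2 and 0.12 for SRSF3, where 36, 41 and 34 of the 48 were above 0, whereas the median over all genes was 0.00 in each of these comparisons. It was 0.09 for SRSF4 and for SRSF5, with 36 of 48 above 0 in each, and −0.01 and 0.01 for SRSF6 and SRSF7. For 73 further major spliceosome genes, treated below, the whole-cell medians were 0.08, 0.11 and 0.17 for SRSF1 to SRSF3. Their cytoplasmic median for SRSF2 was 0.18. In the cytoplasm the members' median was 0.20 for SRSF2, 0.12 for SRSF1, 0.09 for SRSF5, 0.05 for SRSF4, 0.02 for SRSF7, −0.01 for SRSF3 and −0.07 for SRSF6, where 18 of 48 were above 0. With scaling by library totals alone, the whole-cell median was 0.03 for SRSF1 and 0.05 for SRSF3, with 28 and 27 of 48 above 0, and that of all genes was −0.07 in both. This scaling shifted the median of all genes by up to 0.11 on the log2 scale, in the cytoplasm of the SRSF1 knockdown, where the members' median became 0.01 and that of all genes −0.12. The members' median stayed 0.13 above that of all genes there, and 0.22 above it in the cytoplasm of the SRSF2 knockdown, under both scalings. Both SRSF2 cytoplasmic libraries lay above both GFP libraries for 23 of 48 members (47.9%), against 18% of all genes, and in whole cells for 19 of 48 (39.6%), against 21.2% of all genes. The cytoplasmic median for SRSF2 was 0.10 without SRSF2 A, the library that stood apart, 0.36 without SRSF2 B and 0.10 without GFP B, and the whole-cell one was 0.07 without SRSF2 A and 0.24 without SRSF2 B. For SRSF3 in whole cells it was 0.01 without SRSF3 A and 0.24 without SRSF3 B. The shifts of SRSF1, SRSF4 and SRSF5 rested on their A libraries too. Without the A library of the knockdown their whole-cell medians were 0.01, −0.01 and −0.03, with 25, 22 and 16 of 48 above 0. Without the B library they were 0.17, 0.20 and 0.21. In the cytoplasm the SRSF1 median was 0.00 without SRSF1 A and 0.25 without SRSF1 B.

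**Figure D1:**
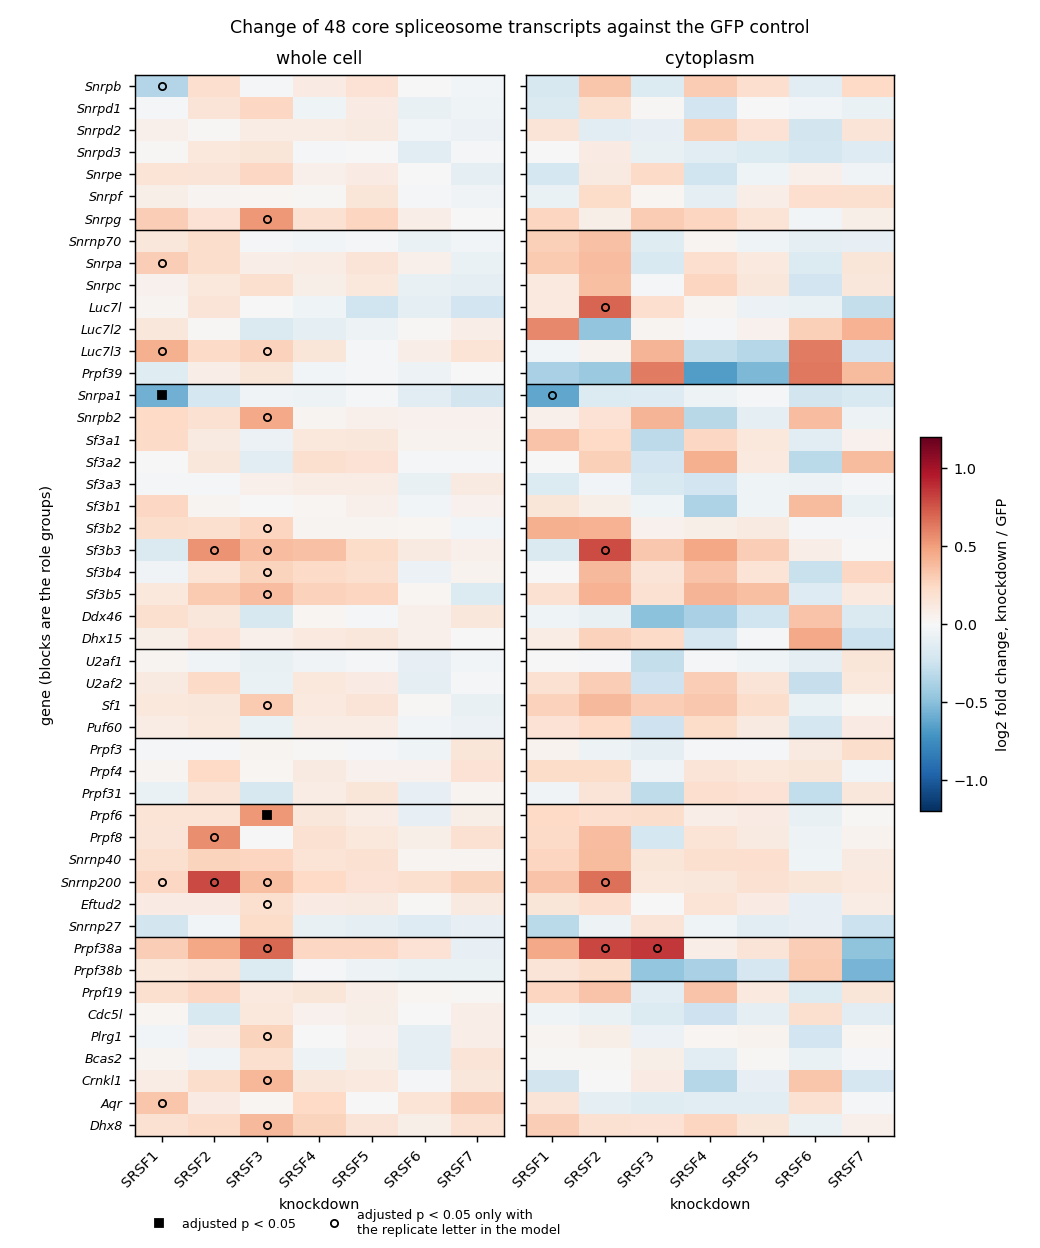
Log2 fold change (colour) of each of the 48 transcripts (rows, in blocks by role group) for each knockdown against GFP (columns), whole cell on the left and cytoplasm on the right; filled squares mark an adjusted p below 0.05 and open circles those reached only with the replicate letter in the model. Filled squares stand at Snrpa1 for SRSF1 and Prpf6 for SRSF3, and the open circles for SRSF3 in whole cells all stand on higher transcripts.

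Among the 12 U2 genes 1 passed the test, and it fell. Snrpa1 (ENSMUSG00000030512) encodes the A′ protein of the U2 snRNP, which binds a stem-loop of the U2 snRNA together with the B″ protein. In whole cells it had 2704 and 2890.4 scaled reads in the SRSF1 libraries A and B, against 3934 and 4446 in the GFP libraries and 3312 to 4450.4 in the libraries of the other knockdowns. Both SRSF1 libraries were thus the lowest of the 16. Snrpa1 fell by 0.58 on the log2 scale (SE 0.11, limma adjusted p = 0.0365, and 0.00166 with the letter in the model). The call was lost, with the same direction, when any 1 of the 4 libraries of the comparison was left out, SRSF1 A or B or GFP A or B (adjusted p = 0.0779 to 0.463), and when the 4 were fitted alone (0.125). In the cytoplasm Snrpa1 stood at 3802 and 3966 scaled reads in the SRSF1 libraries and at 6036 and 6041 in the GFP libraries, again the lowest 2 of 16 with no overlap. That log2 difference was −0.62 (SE 0.11), with a limma adjusted p of 0.0734, and 0.00246 with the letter in the model.

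No other U2 gene passed without the letter in the model. Sf3b3, a scaffold of the SF3B complex that holds the branch point, had 18124 and 13115 scaled reads in the SRSF2 whole-cell libraries and 12417 and 9084 in the GFP ones, so each SRSF2 library was above the GFP library of its letter and above both GFP libraries. Its log2 difference was 0.54 in whole cells and 0.78 in the cytoplasm, where the values were 21433 and 13985 against 11861 and 8718. It passed only with the letter in the model (limma adjusted p = 0.617 against 0.00904 in whole cells, and 0.723 against 0.0285 in the cytoplasm). For SRSF3 the block added Sf3b3 at 0.37 and its SF3B partners Sf3b2 (0.25), Sf3b4 (0.27) and Sf3b5 (0.37) in whole cells, along with Snrpb2 (0.46), which encodes the B″ protein. Sf3b2 had the second smallest p in the cytoplasm for SRSF1, at 22265 and 21219 scaled reads against 16333 and 16328 in GFP, without overlap, and did not pass (adjusted p = 0.313). Sf3b5 was the cytoplasmic member with the smallest p for SRSF4 (3871 and 3184 against 2469 and 2805 in GFP, adjusted p = 0.912).

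In the U5 and tri-snRNP group 1 gene passed the test, and it rose. Prpf6, whose product bridges the U5 and U4/U6 snRNPs, had 5485 and 4145 scaled reads in the SRSF3 whole-cell libraries, 3364 and 3221 in the GFP libraries and 2862 to 3929.8 in all other knockdowns. Both SRSF3 libraries were above the other 14, with A well above B. Prpf6 rose by 0.52 on the log2 scale (SE 0.14, limma adjusted p = 0.0361, and 4.06e-04 with the letter in the model). Without SRSF3 A the log2 difference was 0.33 (adjusted p = 0.337), without GFP A the adjusted p was 0.125 and without GFP B 0.15, whereas without SRSF3 B it was 0.0106. With no filter on low genes the adjusted p was 0.0516, and 0.129 when its 4 libraries were fitted alone.

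Snrnp200 encodes the helicase BRR2, which unwinds U4 from U6. It had 14624 and 13002 scaled reads in the SRSF2 whole-cell libraries, 11104 and 9564 in SRSF3, 10194 and 8854 in SRSF1, and 8885 and 7171 in GFP. The SRSF2 pair was the highest of the 16 libraries and GFP B the lowest. The SRSF3 pair and the SRSF7 pair (9983 and 9219) also lay above both GFP libraries, and SRSF1 B lay just below GFP A. The SRSF2 log2 difference was 0.79 (SE 0.15, limma adjusted p = 0.0958, and 8.94e-05 with the letter in the model), and the blocked fit also called SRSF3 at 0.36 and SRSF1 at 0.25. In the cytoplasm the SRSF2 libraries had 10362 and 8212 against 6043 and 5770 in GFP (adjusted p = 0.462, and 0.0231 with the letter in the model).

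Prpf8, the protein at the centre of the catalytic core, was the member with the most reads. It stood at 53349 and 44823 scaled reads in the SRSF2 whole-cell libraries and at 36997 and 30146 in GFP, with no overlap between the pairs. The log2 difference of 0.55 passed only with the letter in the model (limma adjusted p = 0.176 against 0.0016). Of the remaining U5 genes, Eftud2, a GTPase, was called for SRSF3 by the blocked fit at 0.19, and Snrnp40 and Snrnp27 were called in no knockdown.

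**Figure D2:**
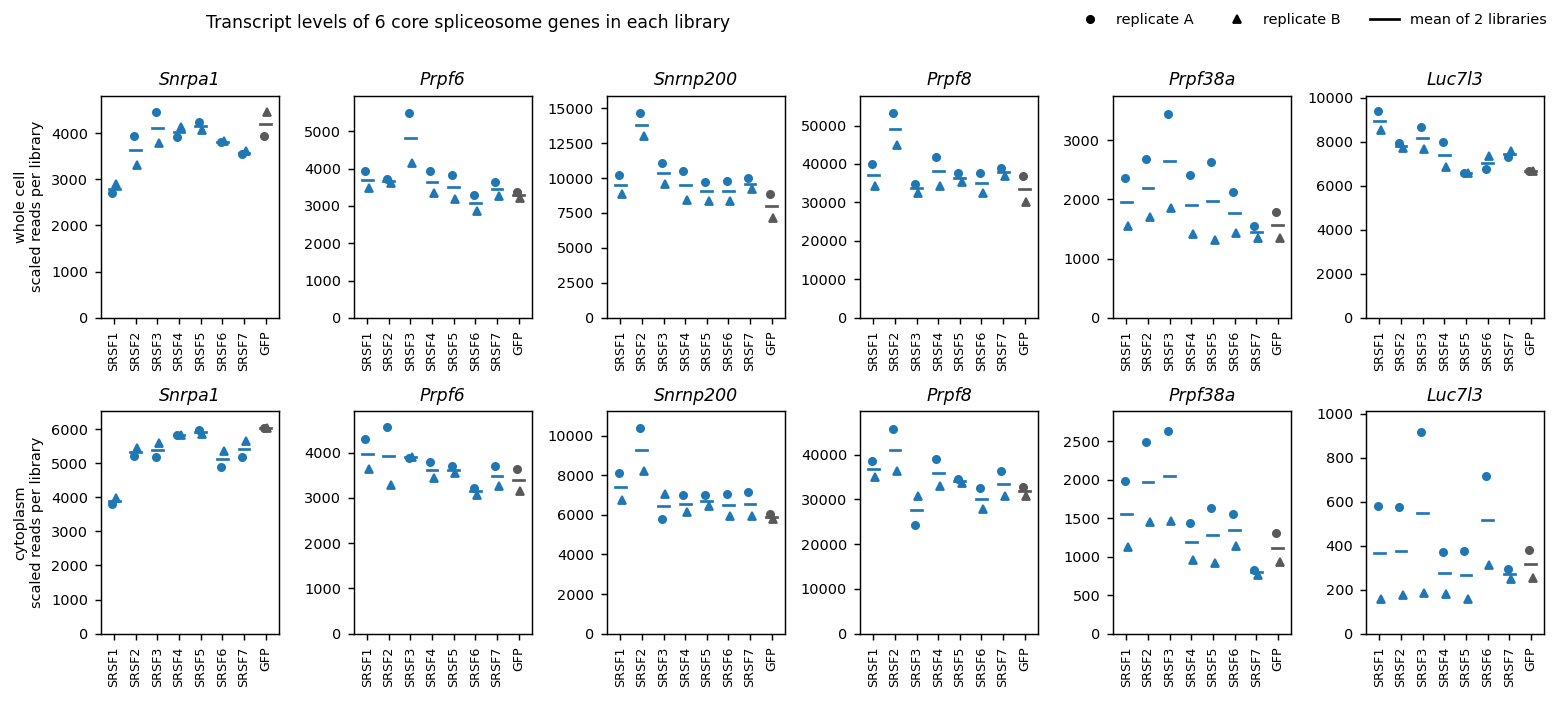
Scaled reads per library (linear axes from 0) of Snrpa1, Prpf6, Snrnp200, Prpf8, Prpf38a and Luc7l3 in the 7 knockdowns (blue) and GFP (grey), whole cell in the upper row and cytoplasm in the lower; circles are replicate A, triangles replicate B and bars the mean of the 2. Snrpa1 is lowest for SRSF1 in both rows, Prpf6 is highest for SRSF3 in whole cells only, and Snrnp200 and Prpf8 are highest for SRSF2.

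In the Sm ring no gene passed the test of the main fit. Snrpb, which encodes SmB and SmB′, was at 4734 and 4382 scaled reads in the SRSF1 whole-cell libraries and at 5873 and 5777 in GFP. The SRSF1 pair was below GFP without overlap, a log2 difference of −0.35 that passed only with the letter in the model (limma adjusted p = 0.351 against 0.016). Snrpg was at 3009 and 2229 in the SRSF3 libraries and 1918 and 1670.1 in GFP, a log2 difference of 0.52 called by the blocked fit. All 7 Sm genes had a positive log2 fold change for SRSF2 in whole cells, between 0.01 and 0.20, and all 7 a negative one for SRSF7, between −0.12 and −0.01. Sm genes have related genes and processed copies, and no source used here says how reads shared with these were assigned, so small differences in this group are uncertain.

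Of the U1 group, Luc7l3 and Snrpa were higher after SRSF1 knockdown in whole cells with the letter in the model. Luc7l3, one of the 3 LUC7-like proteins that bind U1 and influence the choice of 5′ splice site, had 9377 and 8537 scaled reads in the SRSF1 libraries, 8663 and 7667 in SRSF3, and 6668 and 6676 in GFP. The SRSF1 and SRSF3 libraries lay above both GFP libraries. So did those of SRSF2, SRSF4, SRSF6 and SRSF7, at 6734 to 7962 scaled reads, while both SRSF5 libraries (6585 and 6583) lay below. The log2 difference was 0.42 for SRSF1 (limma adjusted p = 0.0684, and 0.00556 with the letter) and 0.28 for SRSF3 (0.0827, and 0.0207 with the letter). Snrpa, which encodes the A protein of the U1 snRNP, was at 4705 and 4259 against 3737 and 3563, a log2 difference of 0.30 (0.248, and 0.0399 with the letter). In the cytoplasm Luc7l was highest in the SRSF2 libraries, at 3941 and 2892 against 2093 and 2115 in GFP (log2 0.69, adjusted p = 0.502, and 0.0218 with the letter).

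Among the 4 genes for branch point and 3′ splice site recognition, Sf1, the branch point binding protein, was at 14502 and 13604 scaled reads in the SRSF3 whole-cell libraries and at 11521 and 10895 in GFP. The SRSF3 pair was the highest A and the highest B library of the fraction, with a log2 difference of 0.31 (limma adjusted p = 0.0619, and 0.00359 with the letter in the model). U2af1, U2af2 and Puf60 had log2 fold changes of −0.09 to −0.07 in the same comparison, and U2af1 had the smallest p of all 48 for SRSF3 in the cytoplasm, at 6186 and 6204 against 7760 and 7461 in GFP, without passing (adjusted p = 0.306). No U4/U6 gene (Prpf3, Prpf4, Prpf31) was called in any knockdown by either fit. Prpf31 was at 4967 and 4866 scaled reads in the cytoplasm after SRSF3 knockdown and at 6414 and 5857 in GFP, a log2 difference of −0.31 with an adjusted p of 0.38.

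Prpf38a, which is needed for activation of the assembled spliceosome, showed a wide gap between letters. In whole cells it had 3433 and 1860.1 scaled reads after SRSF3 knockdown and 1791 and 1348 in GFP. In the cytoplasm it had 2633 and 1468 after SRSF3 knockdown, 2492 and 1453 after SRSF2 knockdown, and 1304 and 925 in GFP. Every A library in these groups was above its B library, and each knockdown library was above both GFP libraries. The cytoplasmic log2 differences of 0.85 for SRSF3 and 0.81 for SRSF2 passed only with the letter in the model (limma adjusted p = 0.397 against 0.00354, and 0.732 against 0.0218). Its relative Prpf38b was called in no knockdown.

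The 7 Prp19 and catalytic-stage genes all had positive log2 fold changes for SRSF3 in whole cells, with a median of 0.19, and 3 of them passed with the letter in the model. These were Crnkl1, a scaffold of the complex (2743 and 1802 scaled reads against 1729 and 1615 in GFP, log2 0.40), Dhx8, the helicase that releases the spliced mRNA (5253 and 4059 against 3743 and 3269, log2 0.39), and Plrg1 (log2 0.27). Aqr, an intron-binding helicase, was the 1 member of the group that passed for SRSF1, at 6699 and 5730.2 against 5660.0 and 4263 in GFP, with B of the knockdown just above A of the control (log2 0.34, limma adjusted p = 0.378, and 0.0307 with the letter). Bcas2, Cdc5l and Prpf19 were called in no knockdown.

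After knockdown of SRSF4 through SRSF7 the members with the smallest p had limma adjusted p-values of 0.741 or more. Snrpa1 had the smallest p in whole cells for SRSF7, with 3538 and 3602 scaled reads, below both GFP libraries (log2 −0.22, adjusted p = 0.741). Sf3a2, an SF3A subunit, had the smallest p in whole cells for SRSF4, at 3886 and 3841 scaled reads, above both GFP libraries at 3187 and 3570.4 (log2 0.20, adjusted p = 1 after rounding). Luc7l for SRSF5 in whole cells was at 3219 and 3472 against 3702 and 4200.0 in GFP, below without overlap (log2 −0.24). For SRSF6 in the cytoplasm, 13 of 48 members (27.1%) lay below both GFP libraries, against 19.1% of all genes, whereas for SRSF4 in the cytoplasm 17 of 48 (35.4%) lay above both, against 20.2% of all genes, and none passed in either.

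Per unit of length, by the authors' FPKM for the GFP condition, which pools the replicates and has no error, the most abundant members in whole cells were the Sm genes Snrpd3 (405 FPKM), Snrpg (377) and Snrpd2 (308). The least abundant were Prpf39 (20.1), Crnkl1 (16.4) and Prpf4 (14.7). In the cytoplasm Snrpd2 (836), Snrpg (731) and Snrpd3 (522) were again at the top, and Crnkl1 (6.07), Luc7l3 (5.76) and Prpf39 (0.450) at the bottom. Prpf39 and Luc7l3, both U1-associated, were thus lower on this scale in the cytoplasm than in whole cells, while the 3 Sm genes were higher.

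The fractions were also compared pair by pair. For every group and letter, the CPM of a gene in the cytoplasmic library was divided by that in its whole-cell library. The median of the log2 ratio over the 16 pairs was 0.19 over the 48 members and −0.25 over 16991 genes, and 8 of 48 members (16.7%) lay below −1, against 31.9% of all genes. All 7 Sm genes (role median 0.36) and all 4 genes of branch point and 3′ splice site recognition (0.66) were above 0. The 2 tables were scaled separately, so these ratios are given as a description, with no test.

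The 5 lowest ratios belonged to U1-associated, U2 and Prp38 genes. Prpf39 had a median log2 ratio of −5.45, with pairs from −6.92 to −3.91, which puts its cytoplasmic CPM at 2.30% of the whole-cell one. In GFP it had 2338 and 2716 scaled reads in whole cells and 79.3 and 44.9 in the cytoplasm. Luc7l3 followed at −4.79 (−5.94 to −3.38, 3.62%), then Prpf38b at −3.01 (12.4%), Ddx46, a helicase that acts when U2 joins the branch point, at −2.54 (17.2%), and Sf3b1, which clamps the branch point helix, at −2.37 (19.3%). The ranges of Prpf39 and Luc7l3 overlapped each other. In all 5 the A pair had the higher ratio in 8 of 8 groups, for example a median of −4.24 over the A pairs and −5.49 over the B pairs for Luc7l3, and the summed nuclear RNAs given above spanned higher values in the cytoplasmic A libraries too. Prpf39 reached 223 scaled reads in the cytoplasm in SRSF3 A, the library with the highest summed nuclear RNAs.

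At the high end, Snrpd2 had a median log2 ratio of 1.43, with pairs from 0.84 to 1.78, followed by Sf3b5 (1.24), Sf3a2 (1.2), Snrpa (1.11) and Puf60 (1.11). The lowest pair of Snrpd2 was below the medians of the 4 genes that followed it, so the order among them is within the spread of the pairs. Within the U1 group the members reached from −5.45 for Prpf39 to 1.11 for Snrpa.

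**Figure D3:**
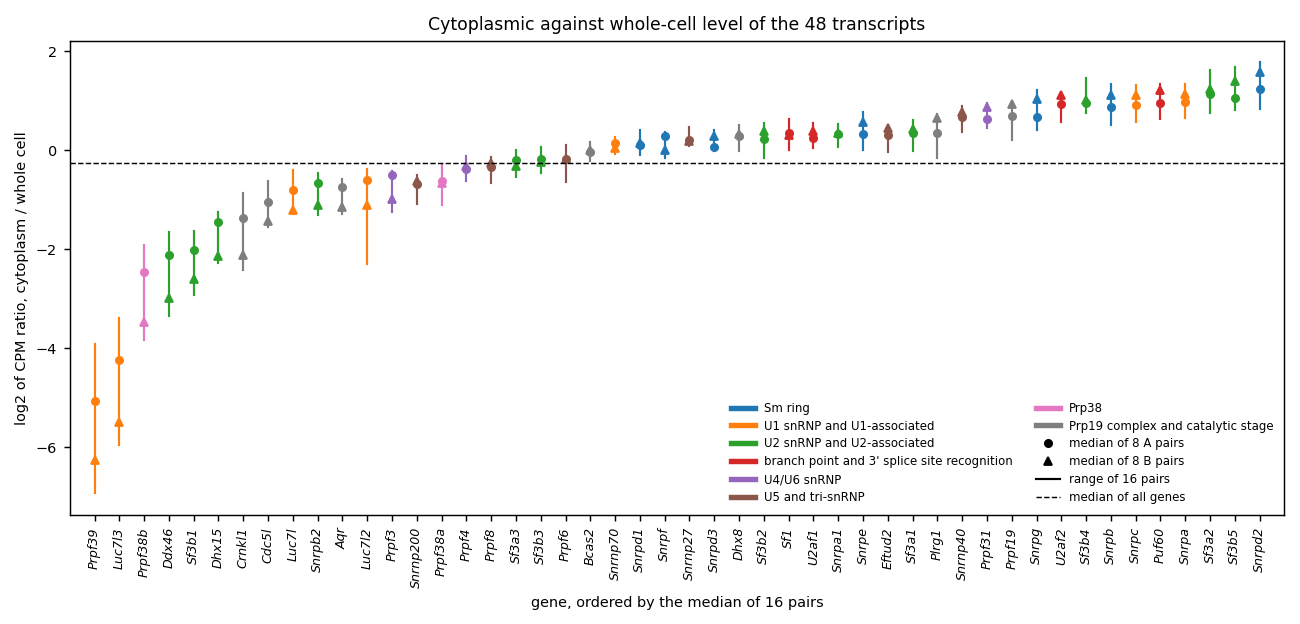
Log2 ratio of cytoplasmic to whole-cell CPM for the 48 genes, ordered by their median over 16 library pairs and coloured by role group; lines span the lowest to the highest pair, circles are the median of the 8 A pairs, triangles that of the 8 B pairs, and the dashed line is the median of all genes (−0.25). Prpf39 and Luc7l3 stand apart at the low end, with the triangles below the circles.

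The study set cytoplasmic against whole-cell changes to look for transcripts whose export depends on an SR protein, and the matching test here was the interaction of knockdown and fraction over all 32 libraries. No member passed it in any knockdown, with either fit, and at an unadjusted p below 0.05 limma gave 0 of 48 for each knockdown. That unadjusted threshold gave 387 higher and 230 lower of all 19158 genes for SRSF3, the most of any knockdown. Among all 19158 genes the adjusted test called 0.00522% for SRSF3 and 0% for each other knockdown. For SRSF3 the members' median log2 interaction was −0.19, with 42 of 48 below 0, against a median of −0.01 over all genes, and with scaling by library totals alone it was −0.12 with 36 of 48 below 0, against 0.06 over all genes. The gap was mostly in replicate A: the members' median log2 ratio of cytoplasm to whole cell was −0.08 for SRSF3 A and 0.27 for GFP A, but 0.10 for SRSF3 B and 0.15 for GFP B, and SRSF3 A had the highest summed nuclear RNAs in the cytoplasm (213.3 CPM), whose part in this was not tested. The median of the interaction was −0.13 without the SRSF3 A cytoplasmic library, −0.12 without the SRSF3 B one, −0.06 without the SRSF3 A whole-cell library and −0.28 without the SRSF3 B one. Every gene of 5 role groups was below 0, with medians of −0.26 for Prp19, −0.22 for U5, −0.21 for Sm, −0.19 for branch point and 3′ splice site recognition and −0.14 for U4/U6, as were 11 of 12 U2 genes, while the U1 group had a median of 0.11. Plrg1 had the smallest p, with a log2 interaction of −0.36 (SE 0.21, adjusted p = 1 after rounding). For the other 6 knockdowns the members' median lay between −0.04 and 0.02. For SRSF3, 73 further major spliceosome genes, treated below, had a median of −0.14, with 60 of 73 below 0. Of 12 minor spliceosome genes 9 were below 0, with a median of −0.19, so the shift was not particular to the 48.

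Exon use was read from counting bins, the stretches into which the annotated exons of a gene are divided wherever transcripts differ. A bin was called when its log2 fold change against GFP differed from that of the gene's other bins (limma diffSplice, adjusted p below 0.1 over all bins). The log2 values given for bins are this difference, whereas the percentages are shares of the gene's reads and were not themselves tested. The 48 genes hold 1019 of the 354841 bins, of which 876 to 884 were tested in whole cells and 784 to 800 in the cytoplasm. In whole cells 2 member bins were called for SRSF1 (0.314% of all bins tested) and 5 for SRSF3 (0.384%). None was called for SRSF2 (0.107%), SRSF4 (0%), SRSF5 (0%), SRSF6 (0.00328%) or SRSF7 (0.072%). In the cytoplasm 1 was called for SRSF1 (0.175%), 4 for SRSF3 (0.48%), and 1 each for SRSF5 (0.0027%), SRSF6 (0.00666%) and SRSF7 (0.0484%). None was called there for SRSF2 (0.0139%) or SRSF4 (0.00207%).

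With the letter in the model the counts were larger. In whole cells 4 member bins were called for SRSF1 (0.506% of all bins), 2 for SRSF2 (0.177%), 10 for SRSF3 (0.49%) and 2 for SRSF7 (0.154%). In the cytoplasm 20 were called for SRSF1 (0.908%), 1 for SRSF2 (0.0188%), 18 for SRSF3 (1.75%), 1 for SRSF4 (0.00691%), 2 for SRSF6 (0.0759%) and 5 for SRSF7 (0.315%).

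The bin called most often was an intronic stretch of Prpf31, a U4/U6 protein needed to join the tri-snRNP. It is bin 8 of the gene (chr7:3630906-3631421 in build mm10, plus strand), 516 bases that in the annotation belong only to a retained-intron transcript. The bin was assigned to intron 3, whose donor is shown above in mm9. Coordinates were not converted between the builds, so its exact place in that intron was not checked. In whole cells it held 4.79 and 3.80% of the gene's reads in the SRSF1 libraries A and B, 3.16 and 2.99% in SRSF3, and 2.14 and 1.65% in GFP. Both knockdowns were above GFP without overlap, as were the SRSF2 pair (2.81 and 2.31%) and the SRSF6 pair (2.16 and 2.29%). It rose after SRSF1 knockdown by 1.22 on the log2 scale (SE 0.23, limma adjusted p = 0.00283), while SRSF3 at 0.71 did not pass (0.807).

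In the cytoplasm the same stretch held 3.95 and 2.39% for SRSF1, 3.01 and 2.41% for SRSF2, 3.58 and 1.85% for SRSF3, 2.43 and 2.13% for SRSF6, and 1.35 and 1.19% in GFP. All 4 pairs lay above the GFP pair, with 121 and 125 reads behind the GFP values and 193 to 401 behind the others. The SRSF4 pair (1.79 and 1.43%) and the SRSF7 pair (1.36 and 1.39%) also lay above both GFP libraries. The mean share was lowest in GFP of the 8 groups, with the knockdowns at 1.08 to 2.5 times it. It rose for SRSF1 (log2 1.30, limma adjusted p = 1.1e-04), SRSF3 (1.04, 0.00644) and SRSF6 (0.84, 0.00448). With edgeR the SRSF1 call stood (adjusted p = 0.0823), and those of SRSF3 (0.581) and SRSF6 (1) were lost. For SRSF2 the log2 difference was 1.12 and the adjusted p was 1 with the 4 libraries of the comparison and 0.0256 with the spread taken from all 16 libraries of the fraction, where SRSF6 had an adjusted p of 1. Prpf31 as a whole passed the gene-level test in no knockdown.

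A further 2 intronic bins were called as higher in whole cells, and 2 of Sf1, given further below, as lower. In Snrpc, which encodes the C protein of the U1 snRNP, a factor that stabilises its pairing with the 5′ splice site, bin 8 (chr17:27848058-27851637 in mm10, plus strand, 3580 bases) covers intron 5. It held 3.94 and 2.86% of the gene's reads for SRSF1 and 1.67 and 1.2% in GFP (208 and 137 against 75 and 72 reads), and rose by 1.29 on the log2 scale (SE 0.24, limma adjusted p = 0.0105). The SRSF2 (1.905 and 1.987%), SRSF3 (2.482 and 1.884%) and SRSF4 (1.8 and 2.083%) pairs also lay above both GFP libraries, and those of SRSF5, SRSF6 and SRSF7 did not. In the cytoplasm the same bin held at most 0.168% of the gene's reads in any library.

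In Sf3a1, an SF3A subunit of U2, bin 17 (chr11:4177621-4178070 in mm10, plus strand, 450 bases) covers intron 12. It held 1.22 and 0.965% of the gene's reads for SRSF3 and 0.560 and 0.278% in GFP (136 and 128 against 66 and 39 reads), with all other knockdown libraries between 0.219 and 0.494%. The SRSF3 pair was the highest of the 16. It rose by 1.44 on the log2 scale (SE 0.23, limma adjusted p = 1.25e-04, and 0.00109 with edgeR on the recovered reads). Only 9 and 9 reads in the SRSF3 libraries and 3 and 1 in GFP fell into it in the cytoplasm.

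**Figure D4:**
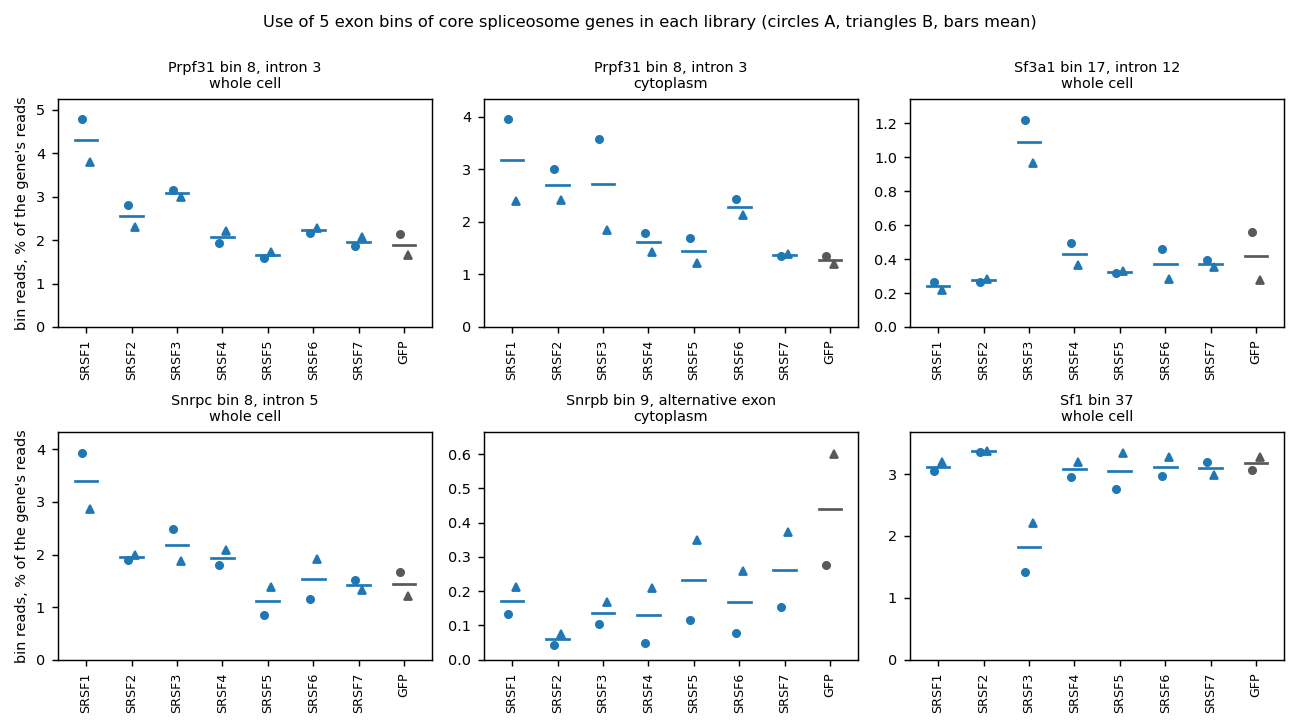
Reads in 5 exon bins as a percentage of all bin reads of the gene (linear axes from 0), in the 7 knockdowns (blue) and GFP (grey); circles are replicate A, triangles B and bars the mean, and the Prpf31 bin is shown in both fractions. The Prpf31 bin is above GFP for SRSF1, SRSF2, SRSF3 and SRSF6 in both fractions, the Sf3a1 bin is highest for SRSF3, the Snrpc bin for SRSF1, the Snrpb bin is lowest for SRSF2, and Sf1 bin 37 is lowest for SRSF3.

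U2af1 carries a pair of mutually exclusive exons of 67 bases each, which the printed acceptors and donors border. They are bin 7 (chr17:31652502-31652568 in mm10, minus strand), the upstream one, and bin 6 (chr17:31651646-31651712), the downstream one. They are identical at 44 of 67 positions (65.7%), and each is exon 3 of 8 in a protein-coding transcript, so the choice changes the protein without changing the reading frame. The share of bin 7 in the reads of both bins rests on 1583 to 2316 reads per whole-cell library and 1822 to 3287 per cytoplasmic library, and its 95% Wilson interval, which covers counting error only, reaches 1.19 to 2.46 percentage points to either side.

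In whole cells bin 7 took 49.5 and 48.5% in the SRSF2 libraries, 32.6 and 35.3% in GFP, and 19.5 and 25.7% in the SRSF7 libraries. In the cytoplasm it took 44.9 and 39.3% in SRSF2, 28.4 and 27.9% in GFP, and 13.2 and 20% in SRSF7. In both fractions the SRSF2 pair was above and the SRSF7 pair below every GFP library, by means of 15.1 and 13.9 percentage points upward and of −11.3 and −11.5 points downward. With 2 libraries against 2, an exact permutation test of a share cannot go below p = 0.333.

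In the fit across all bins, bin 7 fell for SRSF7 in the cytoplasm by 0.76 on the log2 scale (SE 0.15, limma adjusted p = 0.0907, and 4.35e-04 with the letter in the model). That call was lost with edgeR (adjusted p = 1), with all 16 libraries (0.162) and without any 1 of the 4 libraries. In whole cells its log2 difference for SRSF7 was −0.64 (0.443, and 0.0632 with the letter), and for SRSF2 it was 0.63 in whole cells and 0.64 in the cytoplasm (0.25 and 1, and 0.13 in whole cells with the letter). With all 16 libraries and the letter together, a fit added after the data had been seen, bin 7 passed for SRSF2 (0.00249 in whole cells and 0.0587 in the cytoplasm) and for SRSF7 (0.00345 and 0.0332). The remaining knockdowns had means closer to GFP, though several pairs did not overlap it. SRSF3 was above both GFP libraries in each fraction, at 37.0 and 43.3% in whole cells and 30.32 and 35.19% in the cytoplasm. SRSF5 was below both in each, at 27.98 and 31.89% and at 21.45 and 24.06%. In the cytoplasm SRSF6 (30.7 and 32.35%) was above both and SRSF1 (25.1 and 26.24%) below both. SRSF1 was at 32 and 33.5% in whole cells. The SRSF4 libraries reached from 26.8 to 33.41% there and from 21.15 to 30.19% in the cytoplasm.

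**Figure D5:**
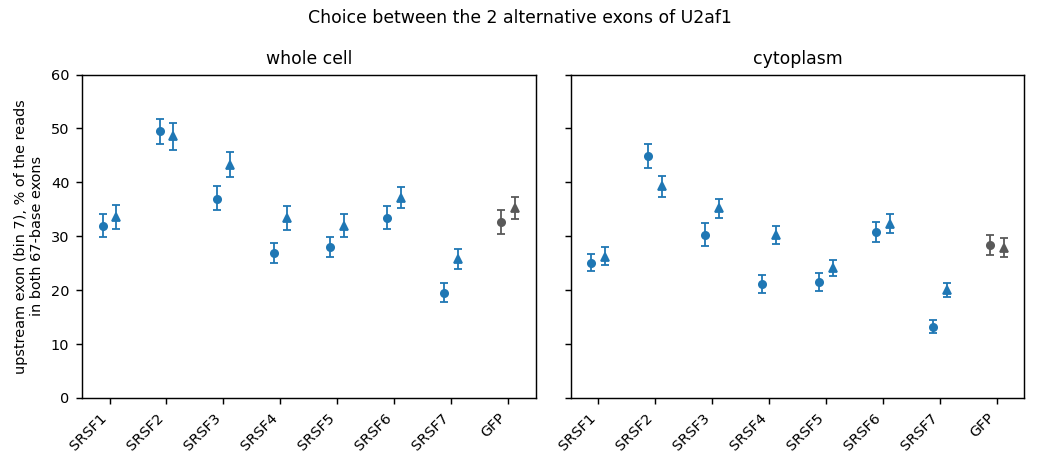
Share of the upstream 67-base exon (bin 7) in the reads of both alternative exons of U2af1, in percent, for the 7 knockdowns (blue) and GFP (grey) in each fraction; circles are replicate A, triangles B, and error bars are 95% Wilson intervals. SRSF2 libraries sit at 39.3 to 49.5%, GFP libraries at 27.9 to 35.3% and SRSF7 libraries at 13.2 to 25.7% over both panels.

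The alternative exon of Snrpb (bin 9, chr2:130176629-130176750 in mm10, minus strand, 122 bases), found in transcripts that the annotation does not class as protein-coding, was used little. Its mean share was lowest for SRSF2 and highest in GFP of the 8 groups, in both fractions. Knockdown means were 0.376 to 0.833 times the GFP mean in whole cells and 0.134 to 0.599 times in the cytoplasm. Every B library was above the A library of its group. In whole cells SRSF2 was at 0.210 and 0.228%, and the A libraries of SRSF3 to SRSF6, at 0.130 to 0.209%, were below both. In the cytoplasm the bin held 0.277 and 0.600% of the gene's reads in GFP and 0.0415 and 0.0762% for SRSF2, without overlap (48 and 140 against 9 and 18 reads). SRSF1 was at 0.133 and 0.212%, SRSF3 at 0.105 and 0.169%, SRSF4 at 0.0488 and 0.210%, and SRSF6 at 0.0766 and 0.260%. Each of these pairs lay below both GFP libraries. The log2 difference for SRSF2 was −2.70, which missed the threshold in the main fit (limma adjusted p = 0.103) and passed with the letter in the model (0.0895), with all 16 libraries (0.00626) and with edgeR (0.00701). With the letter in the model the bin was also lower in the cytoplasm for SRSF1 (adjusted p = 0.0142), SRSF3 (1.98e-04), SRSF4 (0.0812), SRSF6 (0.0227) and SRSF7 (0.0794).

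In Sf1, 7 calls after SRSF3 knockdown fell on 6 bins. Bin 37 (chr19:6375863-6376295 in mm10, plus strand), near the 3′ end of the gene, held 1.42 and 2.21% of the gene's reads for SRSF3 and 3.07 and 3.28% in GFP in whole cells, and 2.00 and 2.24% against 3.83 and 3.40% in the cytoplasm. The SRSF3 pairs were the lowest of the 16 libraries in both fractions, and the bin fell by 0.83 (limma adjusted p = 0.0124) and 0.81 (0.00178) on the log2 scale. Bin 35 beside it fell by 0.73 in whole cells (0.0967). Bins 11 and 13, which belong only to retained-intron transcripts, fell by 0.86 (0.0877) and 0.77 (0.0391) in whole cells, so these 2 intronic stretches lost share while those of Prpf31, Snrpc and Sf3a1 gained it. For SRSF3 bin 11 held 0.228 and 0.332% against 0.516 and 0.502% in GFP, and bin 13 held 0.664 and 1.204% against 1.439 and 1.652%. The SRSF2 pair also lay below both GFP libraries in both bins, and the SRSF5 and SRSF6 pairs did in bin 11. Bins 2 and 3 (chr19:6363719-6363809 and chr19:6363810-6363921), near the 5′ end of the gene, rose in the cytoplasm by 1.5 (0.00497) and 1.45 (0.00426), from shares below 0.1% of the gene's reads in GFP. The GFP libraries had 7 and 11 reads in bin 2 and 7 and 16 in bin 3 there. Their mean share was the lowest of the 8 groups for both bins. Knockdowns other than SRSF3 were at 1.56 to 1.97 times it for bin 2 and 1.22 to 1.97 times for bin 3. None of the 7 calls passed with edgeR on the recovered reads (adjusted p = 0.12 to 1), and those of bins 2 and 3 were also lost with all 16 libraries (0.173 and 0.158).

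The last call was Prpf8 bin 4 (chr11:75486890-75487080 in mm10, plus strand, 191 bases near the 5′ end), which rose in the cytoplasm after SRSF5 knockdown by 1.79 on the log2 scale (limma adjusted p = 2.90e-04). Its mean share of the gene's reads was 4.42 times that of GFP for SRSF5, 4.26 times for SRSF3 and 3.94 times for SRSF1, with GFP the lowest of the 8 groups, and SRSF3 and SRSF1 did not pass with limma (adjusted p = 0.192 and 0.707). The SRSF5 call rests on 25 and 23 reads against 5 and 4 in GFP, and was lost with bins of a mean of at least 20, with edgeR (adjusted p = 1) and with all 16 libraries (1). With the letter in the model, the SRSF1 cytoplasmic libraries also had 7 Prpf8 bins toward the 5′ end higher and 6 toward the 3′ end lower, none of which passed without it.

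Few genes of 2 wider lists of spliceosome genes passed the test. Of 73 further major spliceosome genes, 2 fell after SRSF1 knockdown in whole cells and 4 rose after SRSF3 knockdown. The 2 were Dnajc8, at 3716 and 4524 scaled reads against 7245 and 7868 in GFP (log2 −0.88, limma adjusted p = 0.0127), and Ppwd1 (−0.66, 0.0288). The 4 were the second-step factor Slu7 (0.53, 0.0192), Srrt (0.95, 0.0243), Syf2 (0.55, 0.0254) and Fam32a (0.76, 0.0464). Of 12 minor spliceosome genes, Rnpc3, a protein of the U11/U12 particle, rose after SRSF3 knockdown in whole cells (0.60, 0.0212). No gene of either list passed in any other knockdown, in the cytoplasm or in the interaction test without the letter in the model. With it, 17 of the 73 were higher and 5 lower for SRSF1 in whole cells, 13 and 0 for SRSF2, and 29 and 1 for SRSF3. That fit called 11, 6.05 and 33.2% of all genes in these comparisons, and the fit without the letter called 0.804% for SRSF1 and 11.5% for SRSF3.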

How the data were processed

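Each sample was placed in its group by the knockdown, fraction and replicate letter in its label. The submitters' processing notes list Cufflinks 2.1.1, Bowtie2 2.1.0, TopHat2 in versions 2.0.9 and 2.0.10, CASAVA 1.8.2 and cutadapt, with mm9 and mm10 as builds. The deposited gene tables hold scaled signal, estimated reads per gene that the authors divided by 1 factor per library. The deposited exon tables hold reads per DEXSeq counting bin, scaled to signal per comparison by the authors, from which whole reads were recovered. The FPKM values were pooled per condition by the authors. The deposited fold changes, p-values and isoform estimates were not used. The plan had foreseen counts in the gene tables, whose values did not come out as whole reads, so the test planned for other units was used.

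Gene values were taken as log2(value + 1) after TMM scaling and edgeR's filter on low values (edgeR 4.0.16), and fitted with limma 3.58.1 in R 4.3.3 over the 16 libraries of a fraction, or over all 32 for the interaction, with Benjamini-Hochberg adjustment over all genes. Genes listed at 0 despite 100 or more reads in their bins, 347 in the whole-cell and 353 in the cytoplasmic table and no member, were left out. Bins averaging 5 or more were fitted with diffSplice on the 4 libraries of a comparison.

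The letters were treated as a pairing in a second fit, since the A minus B differences of every 2 groups correlated (28 of 28 pairs above 0.1, Spearman 0.238 to 0.814 in whole cells and 0.449 to 0.827 in the cytoplasm). The labels give only the letter. No 2 libraries held identical values, and the 48 members correlated between A and B at 0.965 to 0.989 in whole cells and 0.96 to 0.991 in the cytoplasm. Wilson intervals are at 95% and cover counting error only. Sequence windows came from mm9 by transcript and exon length, and bins carry mm10 coordinates, which were not converted.

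The members and lists were chosen with earlier results of these data known. Values per library are given for members past the threshold, the members with the smallest p where fewer than 3 passed, up to 10 members past it only with the letter, bins called in the main fit or in 2 or more knockdowns, the 5 highest and 5 lowest ratios and the 3 highest and 3 lowest FPKM. Of the 2 wider lists, 73 of 76 and 12 of 13 genes were in the tables. The gene fits of each fraction and the whole-cell bin fits on the 4 libraries of a comparison were tested on simulated data, for SRSF3. The interaction, the bin fits with all 16 libraries, the cytoplasmic bin fits, the ratios and the sequence windows were not. Alternatives were the block, no low-value filter, a pseudocount of 10, no TMM, fewer or more libraries, edgeR on bins, bins with a mean of at least 20, and leaving out each library.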

Additional observations from a re-analysis of the deposited data

Results flagged for a closer look

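Snrpe, an Sm ring gene, went opposite ways in the 2 fractions after SRSF1 knockdown. In whole cells it had 2846 and 2411 scaled reads in the SRSF1 libraries and 2391 and 2279 in GFP, so both were above. In the cytoplasm it had 3664 and 2801 against 3706 and 3770.3, so both were below. The difference between the fractions, cytoplasm minus whole cell, was −0.38 on the log2 scale (SE 0.34), and the interaction test did not pass (limma adjusted p = 1).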

How the results depend on the processing

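No called count, gene or bin reversed its direction under any alternative. The members' median, which has no test, changed sign without TMM in whole cells for SRSF7 (0.01 to −0.03), in the cytoplasm for SRSF4 (0.05 to −0.04) and SRSF7 (0.02 to −0.05), and in the relative level for SRSF2 and SRSF4 (0.02 to −0.01 in both) and SRSF6 (−0.04 to 0.05). With the replicate letter as a block, the number of members called moved in whole cells to 6 for SRSF1, 3 for SRSF2 and 15 for SRSF3, and in the cytoplasm to 1 for SRSF1, 4 for SRSF2 and 1 for SRSF3, and the block changed no other count of members. Without the filter on low values 0 members were called for SRSF3 in whole cells, with the 4 libraries of a comparison fitted alone 0 for SRSF1 and 0 for SRSF3, and without TMM 1 for SRSF1 in the cytoplasm. For bins, the block gave 4, 2, 10 and 2 in whole cells for SRSF1, SRSF2, SRSF3 and SRSF7, and 20, 1, 18, 1, 2 and 5 in the cytoplasm for SRSF1 to SRSF4, SRSF6 and SRSF7. The spread of all 16 libraries gave 1 for SRSF2 in whole cells, and 5, 2, 0, 0 and 0 in the cytoplasm for SRSF2, SRSF3, SRSF5, SRSF6 and SRSF7. All 16 libraries with the block, a fit chosen after seeing the data, gave 4, 5, 22 and 2 in whole cells for SRSF1, SRSF2, SRSF3 and SRSF7, and 2, 13, 7, 1, 0 and 0 in the cytoplasm for SRSF1 to SRSF6. A minimum mean of 20 gave 3 for SRSF3 in whole cells and 0 for SRSF5 in the cytoplasm. edgeR on the recovered reads gave 1 for SRSF3 in whole cells, and 1, 0, 0, 0 and 0 in the cytoplasm for SRSF2, SRSF3, SRSF5, SRSF6 and SRSF7. Leaving out 1 library at a time gave 0 to 0 members in whole cells for SRSF1 and 0 to 3 for SRSF3, the 3 without SRSF3 B. For bins it gave 1 to 2, 0 to 3, 0 to 13 and 0 to 2 in whole cells for SRSF1, SRSF2, SRSF3 and SRSF7, the 13 without SRSF3 B and the 0 without GFP B. In the cytoplasm it gave 0 to 16, 0 to 65, 0 to 13, 0 to 1, 0 to 0 and 0 to 0 for SRSF1, SRSF2, SRSF3, SRSF5, SRSF6 and SRSF7, the 16 without SRSF1 B and the 65 without SRSF2 B. A lone library left in a group was assumed to vary like the other groups. The cause of these shifts was not tested. Of the single genes and bins, 83 alternatives kept the call and 69 lost it with the same direction. The count tests planned for the gene tables, edgeR and DESeq2, were not run, since those values are not counts. With 2 libraries per group, depth limits chiefly the bins with few reads, such as Prpf8 bin 4.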

Other observations

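A few more bins of member genes differed from GFP only in fits with the replicate letter, and they were picked after their values had been seen. Prpf19 encodes the ubiquitin ligase that gives the Prp19 complex its name, and its bin 6 (chromosome 19, 10898926 to 10898982 in mm10, 57 bases) went opposite ways in 2 knockdowns. In whole cells it held 1.92 and 1.85% of the gene's reads for SRSF2, 1.17 and 1.11% in GFP, and 0.433 and 0.661% for SRSF3. In the cytoplasm it held 1.93 and 1.6% for SRSF2, 0.843 and 0.902% in GFP, and 0.462 and 0.592% for SRSF3. The SRSF2 pair was above and the SRSF3 pair below both GFP libraries in each fraction. With the letter in the model the limma adjusted p in whole cells was 0.0327 for SRSF3 and 0.102 for SRSF2, and without it 0.838 and 1. With all 16 libraries and the letter, a fit added after the data had been seen, it was 2.79e-04 for SRSF3 and 0.0175 for SRSF2 in whole cells and 0.0165 for SRSF2 in the cytoplasm.

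Luc7l2, a LUC7-like gene of the U1 group, held 1.34 and 1.24% of its whole-cell reads in bin 34 (chromosome 6, 38605041 to 38606026 in mm10), toward its 3′ end, for SRSF3, 1.35 and 1.58% for SRSF1, and 2.29 and 2.35% in GFP, with no overlap. With the letter in the model the limma adjusted p was 0.0309 for SRSF3 and 0.0771 for SRSF1, and without it 0.73 and 0.839. Prpf38b bin 11 (chromosome 3, 108906561 to 108907786 in mm10), found only in a transcript classed as processed, held 2.43 and 3.10% for SRSF2 and 4.27 and 4.25% in GFP in whole cells (adjusted p = 0.0373 with the letter and 0.188 without it).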
